A study of Mus musculus with 6 samples.

Results

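The aminoacyl-tRNA synthetases are the enzymes that join each amino acid to its transfer RNA (tRNA), the step that supplies the ribosome with charged tRNA. Animal cells keep mostly separate genes for the cytosolic enzymes and for those that work inside mitochondria, the latter named with a final 2. The gene set held 20 cytosolic enzymes, 16 mitochondrial enzymes and 2 scaffold proteins, Aimp1 and Aimp2, 38 genes in all. Membership follows from gene names. A gene was measured when a row of the array carried its symbol alone, or the newer form with a 1 added, which was needed for Mars1. This gave 36 of the 38 among 19938 named genes, namely 18 cytosolic enzymes, all 16 mitochondrial enzymes and both scaffolds. Dars was not measured, and Aars was found only on a row that it shares with Exosc6.

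The arrays measured total RNA of epithelial cells isolated from the jejunum of mice, a segment of the small bowel. Of the 6 animals, 3 were controls with R26-M2rtTA, a transcription activator that works in the presence of doxycycline, and 3 carried that activator together with a transgene under its control. Animals of both groups drank doxycycline for 24 h, and no animal without doxycycline was compared. The series title and design text name the transgene TRE-Msi1 and the genotype label names it TRE-MSI2; Musashi proteins are RNA-binding proteins known from stem and progenitor cells. The labels used here name no age, sex or strain. The values are log2 signals, and precision is limited by having 3 arrays in each group.

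The Msi1 signal averaged 6.94 ± 0.09 in control epithelium and 12.60 ± 0.09 in transgenic epithelium (SD, n = 3 per group), which is 5.66 higher on the log2 scale. Msi2 differed by -0.42 without passing (adjusted p = 0.168). The Msi1 signal thus separated the groups in the direction that the series text gives. Among 12 epithelial markers, Epcam averaged 12.04 in control epithelium and 11.96 in transgenic epithelium and Krt8 12.90 and 12.77, while Cdx1 was dimmer at 8.56 and 8.25. Epcam and Krt8 were not among the 4 of these markers with the smallest p. Transgenic replicate 1 stood apart: across genes it correlated with the other arrays at 0.922 to 0.952, whereas pairs of controls reached at least 0.995 and the other two transgenic arrays 0.996 with each other. Counts of genes that passed are therefore given with and without that array. Across all genes 6.04% passed as higher in the transgenic arrays and 5.84% as lower (limma with Benjamini-Hochberg adjustment over all genes, adjusted p under 0.05); without transgenic replicate 1 these shares were 14.0% and 14.5%. Of the 12 epithelial markers 1 passed as higher, Cdh1 (0.34), and 0 as lower (against 6.04% and 5.84% of all genes). Without transgenic replicate 1 the counts were 1 and 3 (against 14.0% and 14.5%), the 3 being Cdx2 (-0.32), Cdx1 (-0.39) and Vil1 (-0.26). Vil1 read 10.82 on that array and 12.08 to 12.19 on the controls. In bulk RNA of this kind, more cells of a type and more RNA per cell cannot be told apart.

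Of the 18 cytosolic synthetases measured, 7 rose in the transgenic epithelium (against 6.04% of all genes), 0 fell and 11 did not pass (limma, 13 as higher and 0 as lower at an unadjusted p under 0.05). Their median difference was 0.73 on the log2 scale, against -0.04 over all genes, and all 18 differences were above 0, from 0.08 to 1.33. Without transgenic replicate 1, 13 rose (against 14.0% of all genes), among them the same 7, with a median of 0.52, and 0 fell (1 had an unadjusted p under 0.05 as lower, with limma). The transgenic and control values did not overlap for 15 of the 18, all in the upward direction, where 16.0% of all genes were separated upwards and 34.2% in either direction. With 3 arrays per group, a two-sided exact permutation test reaches no p below 0.1.

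**Figure D1:**
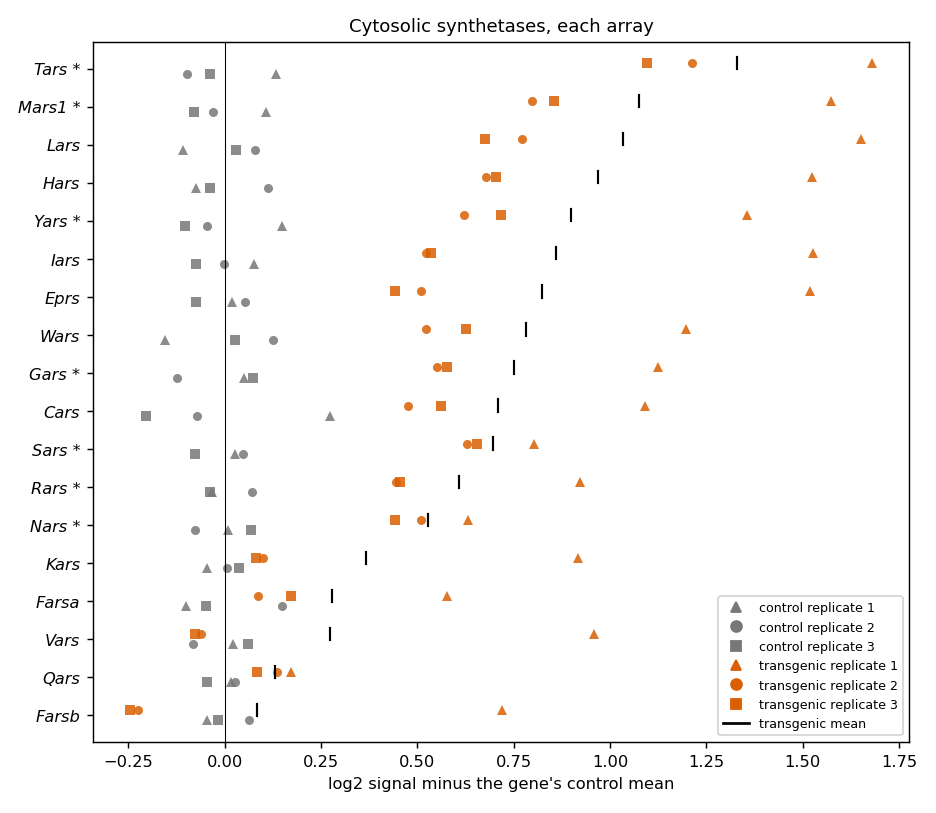
Log2 signal of each cytosolic synthetase minus its control mean, for the 3 control arrays (grey) and the 3 transgenic arrays (orange), with the transgenic mean as a black bar and an asterisk where the gene passed with all arrays. Transgenic replicate 1 is the highest array for all 18 genes, against 24.3% of all genes, and Tars has the highest transgenic mean, 1.33 above its controls.

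The threonine enzyme Tars showed the largest difference of the 18. Its log2 signal was 8.15, 7.92 and 7.98 on control replicates 1 to 3 and 9.70, 9.23 and 9.11 on transgenic replicates 1 to 3. All 3 transgenic arrays lay well above the highest control, and replicate 1 was the highest. The rise was 1.33 (SE 0.169, adjusted p = 0.0069), or 2.51-fold, and 1.16 without transgenic replicate 1. The serine enzyme Sars read 10.01, 10.03 and 9.90 in control epithelium and 10.78, 10.61 and 10.63 in transgenic epithelium. Here the transgenic arrays lay close together and well apart from the controls, with a rise of 0.70 (SE 0.0874, adjusted p = 0.00677). Tars and Sars were the 2 cytosolic enzymes that kept the call with any 1 array left out, with adjusted p up to 0.0453 and 0.0462.

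The methionine enzyme Mars1, which charges both initiator and elongator tRNA in the cytosol, read 8.30, 8.16 and 8.11 in control epithelium and 9.76, 8.99 and 9.04 in transgenic epithelium. Transgenic replicate 1 was well above the other transgenic arrays, which in turn exceeded every control. The rise was 1.07 (SE 0.217, adjusted p = 0.0286), and 0.83 on the mean of transgenic replicates 2 and 3. The tyrosine enzyme Yars read 8.82, 8.63 and 8.57 in control epithelium and 10.03, 9.30 and 9.40 in transgenic epithelium, a rise of 0.90 (SE 0.207, adjusted p = 0.043). The glycine enzyme Gars, whose gene serves the cytosol and the mitochondria, read 9.74, 9.56 and 9.76 in control epithelium and 10.81, 10.24 and 10.26 in transgenic epithelium, a rise of 0.75 (SE 0.173, adjusted p = 0.0425). In both genes the order of the arrays was that of Mars1, with replicate 1 highest and the other transgenic arrays between it and the controls.

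Nars, for asparagine, read 11.14, 11.05 and 11.20 in control epithelium and 11.76, 11.64 and 11.57 in transgenic epithelium. Its 3 transgenic arrays differed little among themselves, and the rise was 0.53 (SE 0.0892, adjusted p = 0.0166). Rars, for arginine, read 10.88, 10.99 and 10.88 in control epithelium and 11.84, 11.36 and 11.37 in transgenic epithelium, a rise of 0.61 (SE 0.147) that only just passed (adjusted p = 0.0497). Mars1, Yars, Gars and Rars lost the call without any array but transgenic replicate 1. Their adjusted p then reached 0.12, 0.16, 0.166 and 0.181. For Nars the call ended when any 1 control, or transgenic replicate 2, was left out, with adjusted p up to 0.0872. None of the 7 changed direction when an array was left out.

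Another 6 cytosolic enzymes did not pass with all arrays and passed when transgenic replicate 1 was left out; Lars, Hars and Wars also passed on all arrays with the dimmest 40% of genes removed. The leucine enzyme Lars differed by 1.03 with all arrays (adjusted p = 0.0577) and by 0.72 without that one. The histidine enzyme Hars differed by 0.97 (adjusted p = 0.0518) and 0.69, and the isoleucine enzyme Iars by 0.86 (adjusted p = 0.113) and 0.53. Eprs, a single protein that charges glutamate and proline, differed by 0.82 (adjusted p = 0.139) and 0.48. The tryptophan enzyme Wars differed by 0.78 (adjusted p = 0.0533) and 0.57, and the cysteine enzyme Cars by 0.71 (adjusted p = 0.0828) and 0.52. The second value was the smaller in each case, with adjusted p from 6.16e-04 for Lars to 0.0224 for Cars. The controls and transgenic arrays of all 6 did not overlap with all arrays included, where 16.0% of all genes were separated upwards. On transgenic replicates 2 and 3 all 6 passed and replicate 1 read higher still, so the separation largely followed from the choice of genes. A second row of Iars differed by 0.73, close to the 0.86 of the row used here. The SD of these 6 genes was 0.07 to 0.25 among controls and 0.33 to 0.60 among transgenic arrays. Transgenic replicate 1 lay 1.09 to 1.65 above the control mean, and the mean of replicates 2 and 3 lay 0.48 to 0.72 above it.

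The remaining 5 cytosolic enzymes did not pass in either fit. Kars, the lysine enzyme that also serves mitochondria, differed by 0.37 with all arrays and by 0.09 without transgenic replicate 1. Qars, for glutamine, differed by 0.13 and 0.11, and Vars, the valine enzyme that binds the elongation factor eEF1, by 0.27 and -0.07. Farsa and Farsb encode the subunits of the phenylalanine enzyme. Farsa differed by 0.28 and 0.13, and Farsb by 0.08 and -0.24 (adjusted p = 0.0685 without transgenic replicate 1). Farsb read 10.02 on transgenic replicate 1, above all controls, and 9.08 and 9.06 on replicates 2 and 3, below all controls (9.26 to 9.37), an order singled out after its values were seen.

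The enzymes were also compared by structural class, the 2 unrelated catalytic folds of the family, with Eprs left out because it holds one of each. Of 9 class I enzymes 3 rose and 0 fell (median difference 0.78), and of 8 measured class II enzymes 4 rose and 0 fell (median difference 0.61), where 6.04% of all genes rose. The counts of higher enzymes were 7 of 9 and 5 of 8 without transgenic replicate 1, where 14.0% of all genes rose, and the medians 0.53 and 0.52. Of the 8 cytosolic enzymes that form the multisynthetase complex together with scaffold proteins, 7 were measured. Mars1 and Rars rose (against 6.04% of all genes), the other 5 did not pass, and the median was 0.82; without transgenic replicate 1, Mars1, Rars, Lars, Iars and Eprs passed as higher (against 14.0% of all genes), while Kars and Qars did not, with a median of 0.48.

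Promoter sequences were examined because all 7 cytosolic enzymes that passed were higher. The transcription factor ATF4, an activator of amino acid supply genes when amino acids run short, binds elements of the form TGATGNAA, where N is any base. The windows came from RefSeq (build GRCm38.p6) and ran from 250 bases before to 50 bases after each start site. The element was searched on both strands, reading TTNCATCA on the other one, and no other motif was searched. Windows were matched for 27 of the 36 measured genes. It was found in 1304 of all 32851 windows of this length (3.97%), and in 563 of 15563 tested genes with a window (3.62%). Among the matched genes it was found in 4 of 11 cytosolic enzymes, 0 of 14 mitochondrial enzymes and 0 of 2 scaffolds. The 4 were Tars, Gars and Yars, which rose, and Iars, which did not pass with all arrays but passed without transgenic replicate 1. Mars1 and Sars rose and had no such letters in the window. Cars, Hars, Lars, Nars, Rars, Vars, Wars, Hars2 and Pars2 were not matched. These counts are a description of the letters and do not show binding. The stretches that hold the match are printed 5′ to 3′ along the gene, from 70 bases before to 30 bases after the start site, with the match in capitals.
Tars, chr15:11399629-11399728, minus strand: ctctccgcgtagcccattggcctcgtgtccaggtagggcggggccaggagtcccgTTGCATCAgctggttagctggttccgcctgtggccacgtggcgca
Gars, chr6:55037931-55038030, plus strand: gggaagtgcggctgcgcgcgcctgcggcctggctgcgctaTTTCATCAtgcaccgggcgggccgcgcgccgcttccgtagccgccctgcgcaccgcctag
Yars, chr4:129189833-129189932, plus strand: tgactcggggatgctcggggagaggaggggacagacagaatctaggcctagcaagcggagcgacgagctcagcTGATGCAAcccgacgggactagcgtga
Iars, chr13:49682060-49682159, plus strand: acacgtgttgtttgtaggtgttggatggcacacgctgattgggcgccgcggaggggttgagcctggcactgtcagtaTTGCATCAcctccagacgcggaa
In Tars and Iars the same 8 letters, TTGCATCA, were found, in Yars their complement on the other strand, TGATGCAA, and in Gars TTTCATCA.

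The mitochondrial synthetases did not share 1 direction. Of 16, 2 rose (Wars2 and Hars2) and 2 fell (Iars2 and Vars2), 4 genes where 11.9% of all genes passed, and 12 did not pass. Their median difference was -0.05, near the -0.04 of all genes, with a range from -0.80 to 0.93. Without transgenic replicate 1, 3 rose (Yars2 was added) and 5 fell (Tars2, Pars2 and Cars2 were added), 8 genes where 28.6% of all genes passed, with a median of -0.10. The groups did not overlap for 5 genes as higher and 3 as lower, 8 genes in all, against 16.0% of all genes as higher, 18.2% as lower and 34.2% in either direction.

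**Figure D2:**
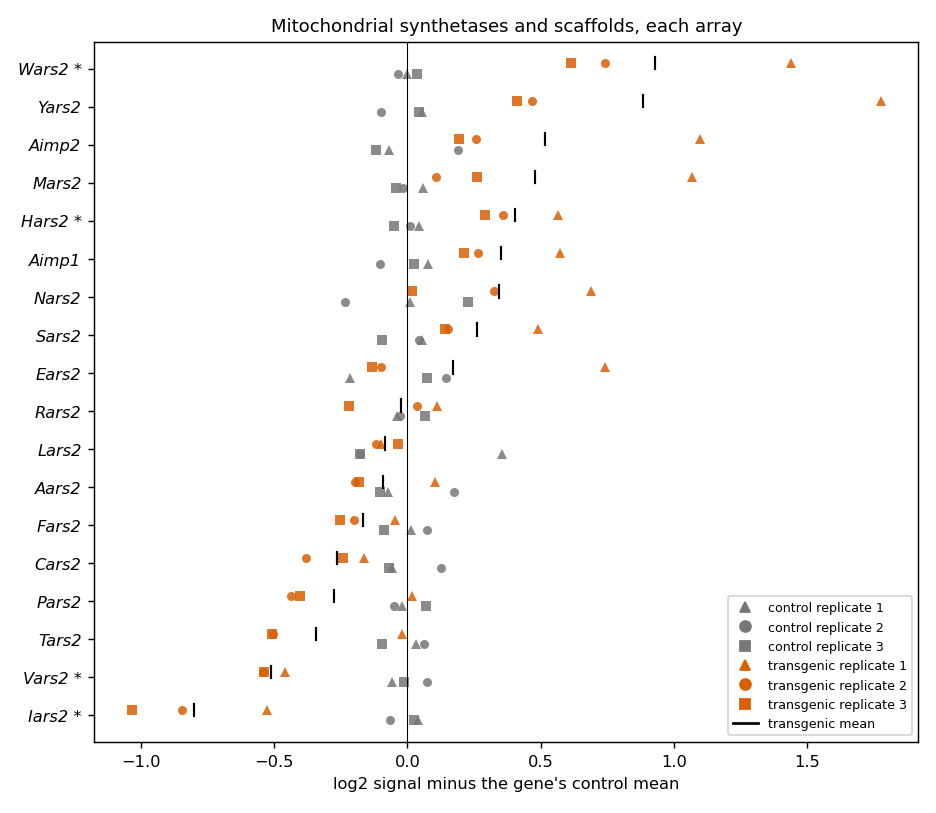
Log2 signal of each mitochondrial synthetase and of the scaffolds Aimp1 and Aimp2 minus the control mean of that gene, for the 3 control arrays (grey) and the 3 transgenic arrays (orange), with the transgenic mean as a black bar and an asterisk where the gene passed with all arrays. The genes spread to both sides of 0, from Iars2 at -0.80 to Wars2 at 0.93.

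Iars2, the mitochondrial isoleucine enzyme, read 8.77, 8.66 and 8.75 in control epithelium and 8.20, 7.88 and 7.69 in transgenic epithelium. Every transgenic array lay below every control, transgenic replicate 1 the least so. The gene fell by 0.80 (SE 0.14, adjusted p = 0.0186) and by 0.94 without that array. Vars2, for valine, read 7.58, 7.71 and 7.63 in control epithelium and 7.18, 7.10 and 7.10 in transgenic epithelium. It fell by 0.51 (SE 0.079, adjusted p = 0.0124), with the 3 transgenic arrays nearly equal. Leaving out any 1 control, or transgenic replicate 2, ended both calls, with adjusted p up to 0.0925 for Iars2 and 0.0656 for Vars2, and left both genes lower.

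Wars2, the mitochondrial tryptophan enzyme, read 7.58, 7.55 and 7.62 in control epithelium and 9.02, 8.32 and 8.19 in transgenic epithelium. The groups did not overlap, and the rise was 0.93 (SE 0.219, adjusted p = 0.0455), 0.68 without transgenic replicate 1. Hars2, for histidine, read 7.95, 7.92 and 7.86 in control epithelium and 8.47, 8.27 and 8.20 in transgenic epithelium, a rise of 0.41 (SE 0.0983, adjusted p = 0.0497). Hars2 lies next to its cytosolic counterpart Hars in the genome, the only neighbouring pair among the measured genes, and both were higher on all transgenic arrays. Yars2, for tyrosine, read 7.99, 7.84 and 7.98 in control epithelium and 9.71, 8.40 and 8.35 in transgenic epithelium. The difference of 0.89 missed the threshold with all arrays (SE 0.368, adjusted p = 0.205), but the gene rose by 0.44 without transgenic replicate 1 (adjusted p = 0.00614). The Wars2 call ended when any 1 control, or transgenic replicate 2, was left out, and the Hars2 call with any array out but transgenic replicate 1. Their adjusted p then reached 0.164 and 0.18.

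Tars2, Pars2 and Cars2, for threonine, proline and cysteine, differed by -0.34, -0.27 and -0.26 with all arrays and did not pass. They passed as lower without transgenic replicate 1, at -0.51, -0.42 and -0.31 (adjusted p = 0.00282, 0.00583 and 0.0444). In Tars2 and Pars2 transgenic replicate 1 read 8.60 and 6.38, within the control range, while replicates 2 and 3 read 8.11 and 8.11, and 5.92 and 5.96, below it. The other 8, Aars2, Ears2, Fars2, Lars2, Mars2, Nars2, Rars2 and Sars2, did not pass in either fit. Their differences ran from -0.17 for Fars2 to 0.48 for Mars2.

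For 12 amino acids both enzymes were measured, so the change of the cytosolic enzyme could be set against that of its mitochondrial counterpart on the same arrays. The cytosolic enzyme changed more in the upward direction in 11 of the 12 pairs, with a median gap of 0.61 between the differences. In the threonine pair the gap was 1.67, made of a rise of 1.33 in Tars and a difference of -0.34 in Tars2. The isoleucine pair had a gap of 1.66, with Iars at 0.86 and Iars2 at -0.80. Both gaps remained near this size without transgenic replicate 1, at 1.66 and 1.47. For tryptophan and tyrosine the gaps were -0.15 and 0.01 (-0.10 and 0.23 without that array). A two-sided exact permutation test of the per-array gap gave p = 0.1, the smallest that 3 against 3 arrays allow, for 9 of the 12 pairs, and an adjusted exact p of at least 0.133 over the 12, so none could pass.

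**Figure D3:**
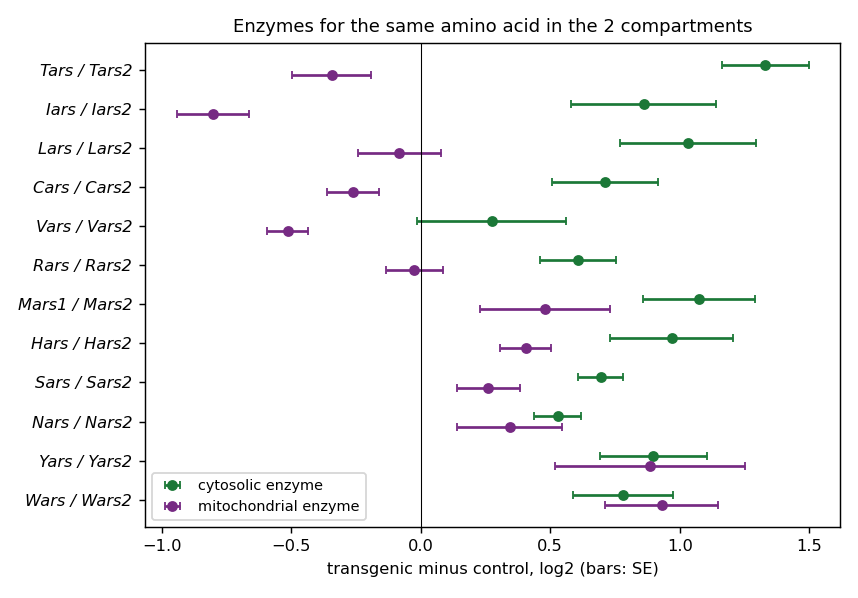
Difference between transgenic and control arrays (log2, bars show the SE of the limma fit) for the cytosolic (green) and the mitochondrial (purple) enzyme of each of 12 amino acids, ordered by the gap between them. The gap is widest for Tars and Tars2 (1.67) and near 0 for Yars and Yars2 (0.01).

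The scaffold proteins of the multisynthetase complex were higher on average, and neither of the listed ones passed. Aimp1 read 8.23, 8.05 and 8.18 in control epithelium and 8.72, 8.42 and 8.36 in transgenic epithelium, a difference of 0.35 (SE 0.122, adjusted p = 0.135). Aimp2 read 8.53, 8.79 and 8.48 in control epithelium and 9.70, 8.86 and 8.80 in transgenic epithelium, a difference of 0.52 (SE 0.257, adjusted p = 0.291). Replicates 2 and 3 of Aimp2 lay only just above the highest control. With limma 0 of the 2 passed, and 1 of the 2, Aimp1, had an unadjusted p under 0.05. Neither passed without transgenic replicate 1, at 0.24 and 0.23. Eef1e1, the third scaffold of the complex, came from a list of 13 measured synthetase-related genes. It read 8.53, 8.42 and 8.47 in control epithelium and 10.83, 9.77 and 9.76 in transgenic epithelium, a rise of 1.65 (SE 0.296, adjusted p = 0.0201) and of 1.29 without transgenic replicate 1. Prorsd1, related to a domain that clears mischarged tRNA, was the other of 2 in that list that rose (0.47, adjusted p = 0.0124), and 0 fell (against 6.04% and 5.84% of all genes), with a list median of 0.07. The same 2 rose without transgenic replicate 1 and 2 fell, Tarsl2 and Qrsl1 (against 14.0% and 14.5%), the latter named after their values were seen. Eef1e1 and Prorsd1 lost the call without any 1 control, with a limma adjusted p up to 0.0932 and 0.0702. Secisbp2 and Sepsecs, of the selenocysteine pathway, differed by 0.22 and -0.20 and did not pass.

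The genes that make, export and deliver tRNA were followed next. Of 50 measured genes of tRNA maturation and export 3 rose and 0 fell, near the 6.04% of all genes that rose (5.84% fell), with a median of 0.50. With limma 17 had an unadjusted p under 0.05 as higher and 2 as lower. Clp1, an RNA kinase associated with the tRNA splicing enzyme, read 7.91, 7.73 and 7.74 in control epithelium and 8.88, 9.43 and 9.33 in transgenic epithelium, a rise of 1.42 (adjusted p = 0.00507). Trnt1, which adds the CCA end to which the amino acid is attached, rose by 1.00 (adjusted p = 0.00606), and Qtrt2, a subunit of the queuosine-forming enzyme, by 1.54 (adjusted p = 0.0388). Tsen15, of the splicing enzyme, missed the threshold at -0.55 (adjusted p = 0.0587). Clp1 and Trnt1 kept the call with any 1 array left out, while that of Qtrt2 ended when any 1 control, or transgenic replicate 2, was left out, with adjusted p up to 0.149. With transgenic replicate 1 left out, 20 of the 50 rose and 6 fell (against 14.0% and 14.5% of all genes), with a median of 0.23. The list median was 1.09 above the control mean on that array and 0.25 and 0.17 above it on replicates 2 and 3.

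Of 16 measured elongation and delivery factors 1 rose, the mitochondrial factor Gfm2 (0.50, adjusted p = 0.0141, up to 0.0753 with 1 array left out), and 0 fell, near the shares of all genes (6.04% and 5.84%). With limma 4 had an unadjusted p under 0.05 as higher and 1 as lower, and the list median was 0.24. Mtrf1l, Mtif3 and Mtif2 of the mitochondrial ribosome differed by 0.88, 0.24 and 0.32 and did not pass. Leaving out transgenic replicate 1, 2 rose, Gfm2 and Mtrf1l, and 1 fell, Tufm, which delivers charged tRNA to the mitochondrial ribosome (-0.63), named after its value was seen; 14.0% and 14.5% of all genes did so.

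**Figure D4:**
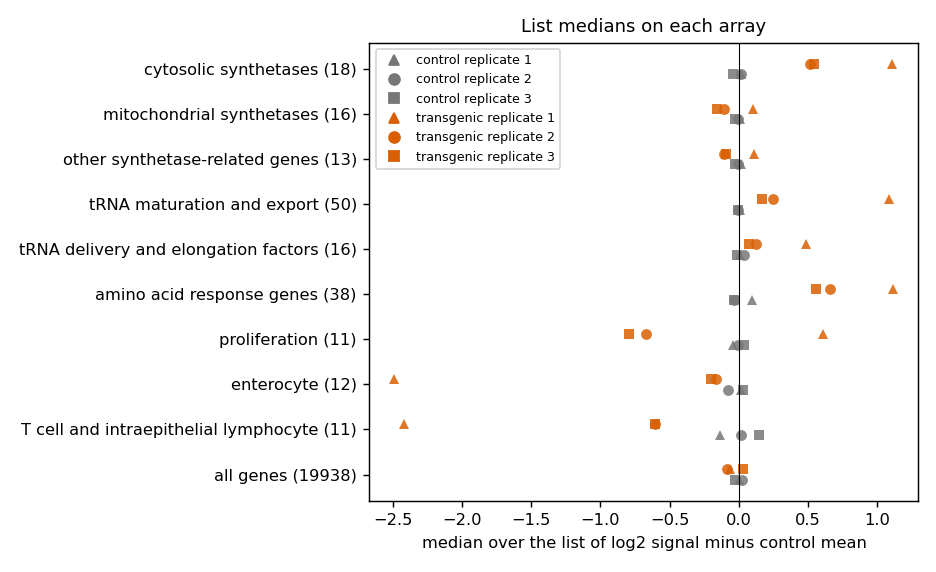
Median over each gene list of the log2 signal minus the control mean of each gene, for the 3 control (grey) and 3 transgenic (orange) arrays, with the number of measured genes in brackets. The cytosolic synthetases lie at 1.11, 0.52 and 0.55 on transgenic replicates 1 to 3 and the mitochondrial ones at 0.11, -0.11 and -0.16, while the enterocyte markers lie at -2.49 on replicate 1.

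A list of genes known to respond to amino acid shortage was also followed. It also held regulators of the response, the kinases Eif2ak1 to Eif2ak4 and Impact. Of 38 measured genes of that list, which holds no aminoacyl-tRNA synthetase, 17 rose and 1 fell (against 6.04% and 5.84% of all genes), with a median of 0.85. The counts were 25 and 3 without transgenic replicate 1 (against 14.0% and 14.5% of all genes), and the median was 0.60. Asns, which makes asparagine and is a textbook ATF4 target, read 10.51, 10.29 and 10.53 in control epithelium and 12.35, 12.04 and 12.08 in transgenic epithelium, a rise of 1.71 (SE 0.12, adjusted p = 0.00158). Impact, a regulator of the kinase Gcn2, rose by 2.18 (adjusted p = 0.001), Ppp1r15a by 1.24 and the translation repressor Eif4ebp1 by 1.48, and these 4 kept the call with any 1 array left out. Aldh18a1, of proline synthesis, was the gene that fell (-0.90, adjusted p = 0.0278), and Atf4 itself rose by 0.64 (adjusted p = 0.0348). Both were named after their values were seen, and both calls ended with any array out but transgenic replicate 1, the adjusted p reaching 0.119 and 0.122. The other 20 did not pass, among them Ddit3 (0.24, limma adjusted p = 0.765) and Trib3 (0.20, limma adjusted p = 0.588), also named after their values were seen. Without transgenic replicate 1, Ddit3 passed as higher, at 0.64, and Trib3 did not pass. The members and this list had been seen in earlier results of these data, so the counts are not independent of each other.

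Markers of other cell types differed between the arrays as well. Enterocyte markers lay at -2.49 relative to the control mean on transgenic replicate 1, the array on which all 18 cytosolic synthetases were highest, and at -0.16 and -0.20 on replicates 2 and 3. Of these 12 markers 0 passed (limma, 0 as higher and 3 as lower at an unadjusted p under 0.05), and without transgenic replicate 1, 5 passed as lower (Sis, Treh, Slc2a2, Fabp1 and Lct, named after their values were seen; against 14.5% of all genes). Their summed log2 signal was 147.1 to 148.3 in control epithelium and 112.9 to 142.8 in transgenic epithelium. Proliferation markers lay at 0.61 on transgenic replicate 1 and at -0.67 and -0.80 on replicates 2 and 3, with summed signals of 100.1 to 101.0 in control epithelium and 93.1 to 108.9 in transgenic epithelium. With all arrays 0 of 11 passed (limma, 0 at an unadjusted p under 0.05), and without transgenic replicate 1, 9 passed as lower (against 14.5% of all genes). The median of the cytosolic synthetases lay 1.11, 0.52 and 0.55 above the control mean on transgenic replicates 1 to 3. All 11 proliferation markers were highest on replicate 1, as were all 18 cytosolic synthetases, against 24.3% of all genes. Markers of T cells and intraepithelial lymphocytes lay at -2.42, -0.60 and -0.61 on transgenic replicates 1 to 3. Their summed signals were 88.0 to 90.4 in control epithelium and 61.5 to 83.5 in transgenic epithelium. With all arrays 1 of 11, Cd8b1, fell (-0.55, limma adjusted p = 0.0101, up to 0.0686 with any 1 control left out), against 5.84% of all genes. The Cd8b1 signal was low, averaging 5.90 in control epithelium and 5.35 in transgenic epithelium, below the array medians of 6.27 to 6.34. Without transgenic replicate 1, 8 of 11 passed as lower (against 14.5% of all genes). Paneth cell markers lay at 1.41, -1.09 and -1.09 on transgenic replicates 1 to 3, and all 8 were highest on replicate 1, as the cytosolic synthetases were. With all arrays 0 of the 8 passed (limma, 1 as higher and 0 as lower at an unadjusted p under 0.05). Without that array 1 passed as higher and 7 as lower (against 14.0% and 14.5% of all genes). The 1 that was higher was Nupr1, which is also in the list followed for amino acid shortage. Their summed signal was 81.1 to 82.5 in control epithelium and 74.2 to 93.6 in transgenic epithelium. The part of these cell types in the synthetase values was not tested.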

How the data were processed

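Each Affymetrix gene array took 250 ng of total RNA, per the labels. The authors deposited log2 signals; RMA and Partek 6.5 come from the submitters' processing notes, and their settings are not known here. RMA equalises the arrays, which hides any difference in the amount of RNA per cell. Array medians ran from 6.27 to 6.34 over 35399 rows.

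Samples were grouped by their titles. Of the rows, 21789 had 1 gene symbol and were named from the platform annotation. The row with the highest mean over the 6 arrays was kept per gene, with no filter on dim genes. R 4.3.3 and limma 3.58.1 (eBayes, no trend) fitted the differences on 19938 genes with Benjamini-Hochberg adjustment, passing at an adjusted p under 0.05; ± is an SD over 3 arrays. The fit was tested on simulated data. The simulated arrays all took their SDs from the controls and held no outlying array, so the test does not cover transgenic replicate 1. No list was tested as a set.

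Every array value was given for members that passed and, per group, the 3 with the smallest p and the 2 with the largest difference. Per other list up to 4 genes with the smallest p were named, mostly with the difference alone. Beside these stand Epcam, Krt8 and genes that the text says were named after their values were seen. Members and lists were chosen with earlier results of these data known. Alternatives covered normalization, dim genes, rows, the variance model, array weights, replicate blocks, the threshold and left-out arrays.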

Additional observations from a re-analysis of the deposited data

Results flagged for a closer look

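The row shared by Aars, the alanine enzyme, and Exosc6, a subunit of the RNA exosome, was outside the comparison because it carries both symbols. It read 8.61, 8.44 and 8.39 on the control arrays and 9.66, 9.62 and 9.63 on the transgenic arrays. The difference was 1.16 (SE 0.0906, limma adjusted p = 0.00356 over all 35399 rows) and 1.14 without transgenic replicate 1. The row drew attention because it lies outside the genes compared and its groups did not overlap. Which of the genes gave the signal was not tested.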

How the results depend on the processing

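The count of all genes that passed, 2368, was 733 with a replicate block on the title numbers, 4019 with a replicate block on the description numbers (4 arrays), 5770 with array weights, 4573 with both first replicates left out, and 683 to 5700 with 1 array left out. The 7 cytosolic synthetases that passed as higher became 4 after quantile normalization and 4 with all rows tested, 11 at an adjusted p under 0.1, 12 with array weights and 13 with both first replicates left out. With the replicate block they were 2 on the title numbers and 12 on the description numbers, and with 1 array left out 2 to 13. The 4 mitochondrial ones became 0 with the replicate block on the title numbers (limma, 5 at an unadjusted p under 0.05), 2 with all rows tested, 8 with array weights and 0 to 8 with 1 array left out (limma, 4 to 6 at an unadjusted p under 0.05 where 0 passed). The causes were not tested. Control and transgenic arrays of the same title number had deviations that correlated at -0.17 to -0.07 across genes, so the numbers were not taken as pairs. Some members that did not pass changed sign. With 1 array left out, Farsb ran from -0.24 to 0.25, Vars from -0.07 to 0.45 and Ears2 from -0.12 to 0.32, each lowest without transgenic replicate 1, Lars2 reached 0.09 without control replicate 1, and Rars2 ran from -0.09 to 0.07. Farsb and Vars were -0.17 and -0.03 with array weights, and -0.26 and -0.06 both with the description block and with both first replicates left out. Ears2 was -0.22 and Lars2 0.10 in both of those settings, and Rars2 was 0.01 with equal array medians. Over 17 settings and 36 members, 485 of 612 values kept direction and call. This count includes members that passed neither in the main fit nor in the setting, so it overstates how stable the calls were. Depending on the setting, 2 to 7 of the 7 cytosolic calls and 0 to 4 of the 4 mitochondrial calls were kept.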

Other observations

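Genes of the Myc network and of its growth targets were followed because Myc is known to activate genes of protein synthesis. Of 16 measured 0 rose and 1 fell (against 6.04% and 5.84% of all genes), Mycn at -0.40 (limma adjusted p = 0.0406, 3 as higher and 4 as lower at an unadjusted p under 0.05), and the median was 0.36. Myc itself, named after its value was seen, differed by 1.16 with all arrays (adjusted p = 0.276) and passed as higher without transgenic replicate 1, at 0.48 (adjusted p = 0.0186). The nucleolar helicase Ddx21 differed by 1.36, and the Myc antagonists Mxi1 and Mxd4 by -1.28 and -0.40, and none of these 3 passed with all arrays. The Mycn call ended with any array out but transgenic replicate 1, with a limma adjusted p up to 0.143. Its signal was low, averaging 6.14 in control epithelium and 5.74 in transgenic epithelium, below the array medians of 6.27 to 6.34. Leaving out transgenic replicate 1 gave 5 higher genes (Ddx21, Nop58, Ncl, Myc and Cad) and 4 lower ones (Mxi1, Mxd4, Mycn and Mycl), against 14.0% and 14.5% of all genes. These genes were named after their values were seen. The list median was then 0.08, over a list that holds Myc antagonists beside Myc and its growth targets. The list median was 0.97 above the control mean on transgenic replicate 1 and 0.09 and 0.10 above it on replicates 2 and 3.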
